A study of Mus musculus with 21 samples.

Results

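The comparison set banded mouse hearts given 10 min of vagus nerve stimulation a day from week 1 (VNS10_1w) against hearts of sham-operated mice (Sham), across all genes. It used 6 of the 21 left ventricle libraries of the study, 3 in each group, chosen by their labels. All mice were male, wild type C57BL/6 animals, operated on at 8 weeks of age, and hearts were taken at week 8 after surgery. Sham mice had the thoracotomy without ligation. VNS10_1w mice had the ascending aorta narrowed by a suture and carried an implanted triboelectric nanogenerator, a degradable device that turns motion into current, with a cuff on the left cervical vagus nerve (4 µA, 2 Hz, 10 min daily for 7 weeks). Further groups with 3 libraries each are used beside them: AB (banded, no device), AB_Implant (banded, device never active) and 3 with 20 min daily. These were VNS20_1w (banded, from week 1 for 7 weeks), VNS20_2w (banded, from week 2 for 6 weeks) and VNS20_4w (banded, from week 4 for 4 weeks). Sham mice carried neither band nor device, so the effects of banding, device and current cannot be told apart in VNS10_1w against Sham. The labels call the libraries biological replicates. The p-values rest on the spread between libraries within groups, estimated over all 21 libraries.

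Pressure overload makes ventricular myocytes enlarge. As they do so they take up genes of the fetal heart again, such as the natriuretic peptides and the slow myosin heavy chain, and fibroblasts lay down collagen. The vagus nerve slows the heart by releasing acetylcholine onto muscarinic receptors, and its stimulation is studied as a way to limit such remodelling.

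The 6 libraries held 13537253 to 16823800 counts each. Levels below are counts scaled to library totals with TMM factors (CPM), which correct for differences in RNA composition, and cannot be compared between genes because they are not divided by length. The 8 cardiomyocyte markers summed to 45630 to 53560 CPM in Sham and 43390 to 62890 CPM in VNS10_1w, so both groups carried the markers of heart muscle. VNS10_1w replicate 2 stood apart. Its log2 level rose by 0.400 for each doubling of gene length, relative to the mean of all 21 libraries, against -0.161 and -0.0310 in its mates, and mitochondrially encoded genes took 36.4% of its counts against 50.3% and 48.6%. It lay 0.996 and 0.755 log2 units (root mean square over the tested genes) from its mates, which lay 0.477 from each other. Sham libraries lay 0.480 to 0.578 apart. Sham replicate 3 was also unusual in stress-induced genes: Egr1 stood at 49.0 CPM there against 10.3 and 6.11 in the other Sham libraries.

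Few genes separated VNS10_1w from Sham. Of 12100 tested genes, 16 (0.132%) passed an adjusted p of 0.05 in edgeR's quasi-likelihood test, 15 higher (0.124%) and 1 lower (0.00826%). Of the 15 that rose, 13 encode proteins that the liver is known to make, and the others were Cebpb and Clk1. The gene that fell was Nrp1. Across all genes, 605 (5%) had an unadjusted p under 0.05, 324 higher (2.68%) and 281 lower (2.32%). In 1216 genes (10%) the 3 libraries of each group did not overlap, 586 higher (4.84%) and 630 lower (5.21%). Log2 fold changes were positive for 53.9% and negative for 46.1% of genes, with a median of 0.03. The number of calls moved with single libraries. It was 7 without Sham replicate 1, 5 without Sham replicate 2, 34 without Sham replicate 3, 6 without VNS10_1w replicate 1, 7 without VNS10_1w replicate 3 and 13 without VNS10_1w replicate 2. Other tools called more: DESeq2 gave 63 genes and limma-voom with sample weights 709.

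**Figure D1:**
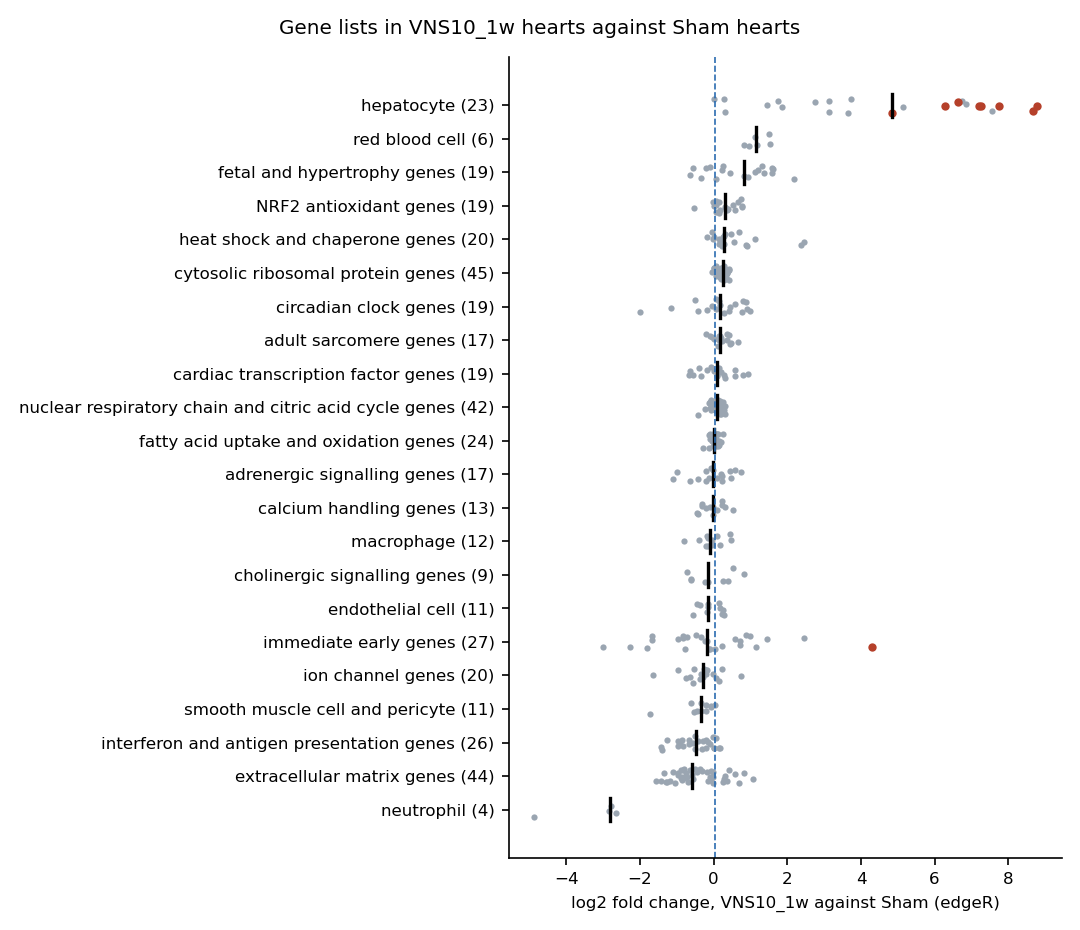
Log2 fold change in VNS10_1w against Sham (x axis) for the tested members of 22 gene lists (rows, number tested in brackets). Each point is a gene, red where its adjusted p was under 0.05 in edgeR, black bars are list medians and the dashed line is the median of all 12100 tested genes. Called members lie in the hepatocyte and immediate early lists, while hypertrophy genes lie mostly right and matrix genes mostly left of the dashed line without a call.

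Of the 16 genes called in the edgeR fit, 13 were liver-type transcripts, 8 of them in the hepatocyte marker list. That list held 13 of the 63 genes DESeq2 called and 15 of the 709 limma-voom called. Albumin (Alb, ENSMUSG00000029368, chr5:90460897-90476602, plus strand, GRCm38), the main plasma protein, stood at 0.131, 0.180 and 0.0501 CPM in Sham and at 53, 9.18 and 18.1 CPM in VNS10_1w. Every VNS10_1w library was thus above every Sham library, and replicate 2 was the lowest. This rested on 1104 counts against 6, a ratio of 195 (95% exact interval 89.5 to 534, counting error only), and the log2 fold change was 7.74 ± 0.87 (SE; edgeR adjusted p = 0.000290). Cyp3a11, a cytochrome P450 that oxidises drugs and steroids, was at 0, 0 and 0.0501 CPM in Sham and 13.6, 4.98 and 14.5 CPM in VNS10_1w, 493 counts against 1 (edgeR adjusted p = 0.00314). Cyp2c29, another drug-metabolising P450, was at 0.0654, 0 and 0 CPM against 10.1, 8.12 and 10.5 CPM, 457 counts against 1 (edgeR adjusted p = 0.000332). With a single Sham count, the intervals of these ratios were wide, 93.5 to 20700 for Cyp3a11 and 86.7 to 19200 for Cyp2c29.

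Several of these transcripts had no count in any Sham library, and their folds are bounds against a floor of 3 counts over the group. Gc, the vitamin D carrier of plasma, was at 4.06, 2.95 and 3.70 CPM in VNS10_1w and at least 59.8-fold higher (edgeR adjusted p = 0.000100). Apob, the structural protein of very low density lipoprotein, was at 4.82, 1.98 and 2.73 CPM and at least 50.3-fold higher. Kng1, the kinin precursor, was at 1.61, 0.830 and 1.17 CPM and at least 19.5-fold higher. Ambp, Azgp1 and Slc27a2 were at least 18.8-fold, 16.6-fold and 14.9-fold higher. The remaining calls were Apoa1 (113 counts against 1), Fabp1 (95 against 1), Acaa1b (94 against 1) and Cps1, the urea cycle enzyme (66 against 2). Gc, Alb, Cyp2c29, Cyp3a11 and Kng1 were the 5 genes called in all 6 fits that each left out 1 of the 6 libraries. Apob lost its call without Sham replicate 2. Apoa1 kept its call only without VNS10_1w replicate 2 or 3, Ambp only without Sham replicate 3 or VNS10_1w replicate 2, Fabp1, Acaa1b and Slc27a2 only without VNS10_1w replicate 2, and Cps1 only without Sham replicate 1. Azgp1 was called in 0 of the 6 fits. Adjusted p in edgeR ran up to 0.254 among these genes. Apart from Alb, Cyp2c29, Cyp3a11 and Gc, these genes were named after their values were seen.

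The hepatocyte marker list showed how uneven the rise was. The list held 26 genes with counts, of which 23 were tested. Of these, 8 were called higher (background 0.124%) and 18 had an unadjusted p under 0.05 in the higher direction (background 2.68%). In 16 the groups did not overlap (background 4.84%). Members at or near 0 in unstimulated libraries passed the filter (1 CPM in at least 3 libraries) only through the stimulated ones. For them these counts are partly set by the filter and cannot be weighed against the background. With no filter on low counts, 8 of all 26 were called higher, beside 15 of 17238 genes in that fit, and 20 had such a p. Calls in the list fell to 4 without Sham replicate 2 or VNS10_1w replicate 1. They fell to 5 without Sham replicate 1 or 3 or VNS10_1w replicate 3, and to 2 with the 2 groups fitted alone. Over all tested genes those fits called 5, 6, 7, 34, 7 and 4, in that order. The median log2 fold change was 4.85 as fitted, and 3.73 with 7 members without a Sham count set at their bound. List levels summed to 7.01 to 10.4 CPM in Sham and 36.6 to 116 CPM in VNS10_1w. In AB and AB_Implant the sums were 8.22 to 19.2 CPM. Over the 9 libraries of VNS20_1w, VNS20_2w and VNS20_4w they were 64.3 to 177 CPM. Of the listed genes 13 were at 0 in all Sham libraries. In VNS10_1w Mup3, a major urinary protein gene that is abundant in male mouse liver, was at 0, and Serpina3k and Mup20 had 3 counts each over the group. Cyp2e1, abundant in liver, had 73 counts in VNS10_1w against 63 in Sham (ratio 1.23, 95% exact interval 0.866 to 1.75). Ass1, of the urea cycle, had 147 against 134 (1.16, 0.915 to 1.48). Bulk libraries cannot tell more cells of a type from more RNA per cell, and the source of these transcripts was not tested.

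**Figure D2:**
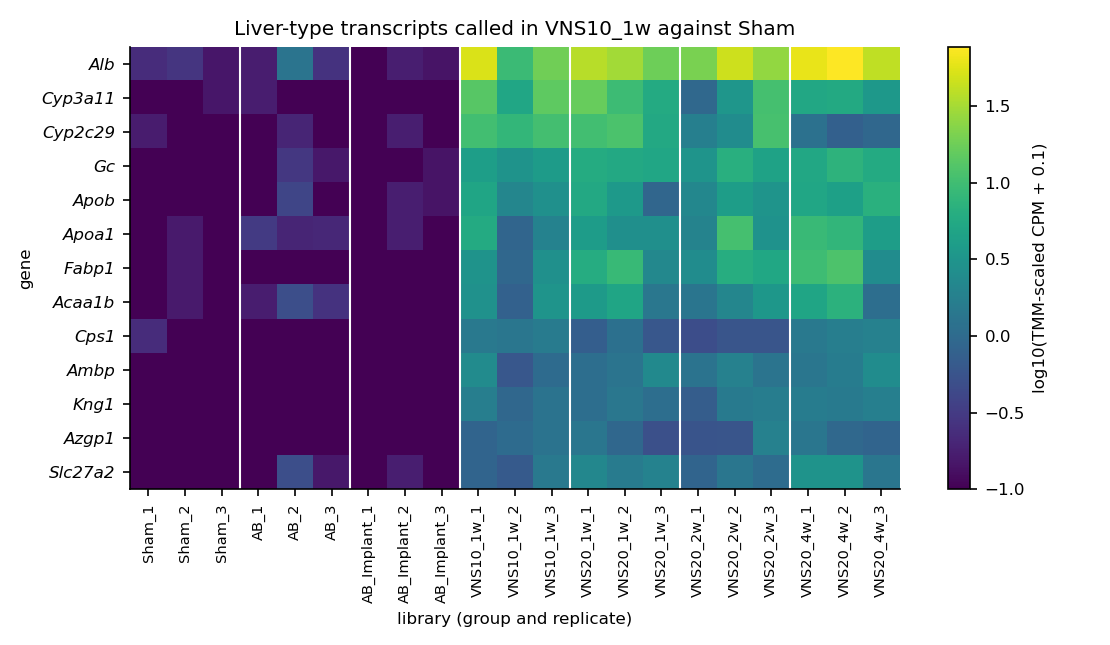
Level of the 13 liver-type genes called in VNS10_1w against Sham (rows) in all 21 libraries (columns, grouped), as log10 of TMM-scaled CPM plus 0.1. Within each row the 12 stimulated libraries are lighter than the 9 unstimulated ones. Alb was at 9.18 to 76.6 CPM against at most 1.18 CPM. Slc27a2 was at 0.553 to 2.95 CPM against at most 0.394 CPM.

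Promoter windows are shown for members of this set that moved together, to let their start regions be read. RefSeq windows of 300 bases (250 before and 50 after the annotated start, GRCm38.p6) were at hand for 13 of the 16 called genes. Hepatocyte nuclear factor 1 (HNF1) is a homeodomain protein that binds many liver promoters. Its motif was searched on both strands as GTTAATNATTA and, after few matches, as the shorter GTTAATNAT contained in it. The long form was in 1 of the 13 windows (7.69%), in 0.0657% of the 12176 windows of tested genes and in 0.140% of all 32851 windows. For the short form it was 2 windows (15.4%), against 0.361% and 0.801%. The windows with the short form were those of Alb (chr5:90460620-90460919, plus strand) and Gc (chr5:89457849-89458148, minus strand), printed 5′ to 3′ along the gene with the match in capitals. It began 32 bases before the annotated start in Alb and 52 bases before it in Gc.

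Alb: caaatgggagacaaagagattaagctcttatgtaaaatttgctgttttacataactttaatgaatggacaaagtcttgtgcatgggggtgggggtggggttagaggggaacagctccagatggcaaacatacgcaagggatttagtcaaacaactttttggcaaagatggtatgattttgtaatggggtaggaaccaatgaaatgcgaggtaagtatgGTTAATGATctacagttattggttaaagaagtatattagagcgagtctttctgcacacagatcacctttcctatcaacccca

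Gc: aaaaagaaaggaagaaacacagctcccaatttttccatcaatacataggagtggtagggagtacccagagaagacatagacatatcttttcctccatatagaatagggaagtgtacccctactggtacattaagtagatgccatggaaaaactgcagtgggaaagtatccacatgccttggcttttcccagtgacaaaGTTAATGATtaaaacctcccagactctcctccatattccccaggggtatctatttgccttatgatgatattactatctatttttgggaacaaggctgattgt

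Cebpb was called higher as well, outside the liver-type group. It encodes C/EBPβ, a transcription factor of inflammation and of liver and heart growth (chr2:167688915-167690418, plus strand, a gene of 1504 bases with 67.2% GC). Sham libraries stood at 1.24, 1.98 and 4.11 CPM and VNS10_1w libraries at 48.4, 31.4 and 66.2 CPM, with no overlap (log2 fold change 4.29 ± 0.76 SE, edgeR adjusted p = 0.0320). The banded groups without current were as high, with 41.0 ± 22.4 CPM in AB and 39.5 ± 5.11 CPM in AB_Implant (SD, n = 3). VNS20_1w was low, with 0.824 ± 0.704 CPM (SD, n = 3), and the difference between session lengths was itself called (log2 -5.86 ± 0.86 SE, edgeR adjusted p = 0.00851). The call against Sham was lost on leaving out Sham replicate 1 or 2 or VNS10_1w replicate 1 or 3, with adjusted p up to 0.254 in edgeR. Another gene of high GC content, Scand1 (68.4% GC), was at 1.63, 2.81 and 19.4 CPM in Sham, 34.2, 13.7 and 27.6 CPM in VNS10_1w and 0.125 to 1.01 CPM in VNS20_1w. The part of GC content in these levels was not tested.

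Clk1, a kinase that phosphorylates splicing factors, rose (chr1:58410189-58424066, minus strand). It was at 52.2, 46.2 and 72.1 CPM in Sham and 152, 97.2 and 142 CPM in VNS10_1w, a log2 fold change of 1.2 ± 0.22 (SE, edgeR adjusted p = 0.0434). AB and AB_Implant lay between, at 84.0 ± 10.5 and 87.7 ± 23.7 CPM (SD, n = 3). Nrp1, neuropilin 1, a co-receptor for vascular endothelial growth factor and semaphorins, fell (chr8:128358604-128503363, plus strand). Its Sham levels of 51.9, 73.6 and 55.9 CPM stood against 28.5, 35.7 and 31.3 CPM in VNS10_1w, a log2 fold change of -0.93 ± 0.18 (SE, edgeR adjusted p = 0.0434). AB_Implant was as low, at 29.5 ± 1.37 CPM, while AB was at 56.5 ± 1.21 CPM and VNS20_1w at 62.4 ± 6.90 CPM (SD, n = 3). VNS20_1w exceeded VNS10_1w by 0.97 ± 0.18 log2 units (SE, edgeR adjusted p = 0.0379). Clk1 lost its call without Sham replicate 1 or 2 or VNS10_1w replicate 1 or 3, with adjusted p up to 0.336. For Nrp1 every left-out library except Sham replicate 3 ended the call, with adjusted p up to 0.418, as did scaling with DESeq2 size factors or testing without a filter on low counts.

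**Figure D3:**
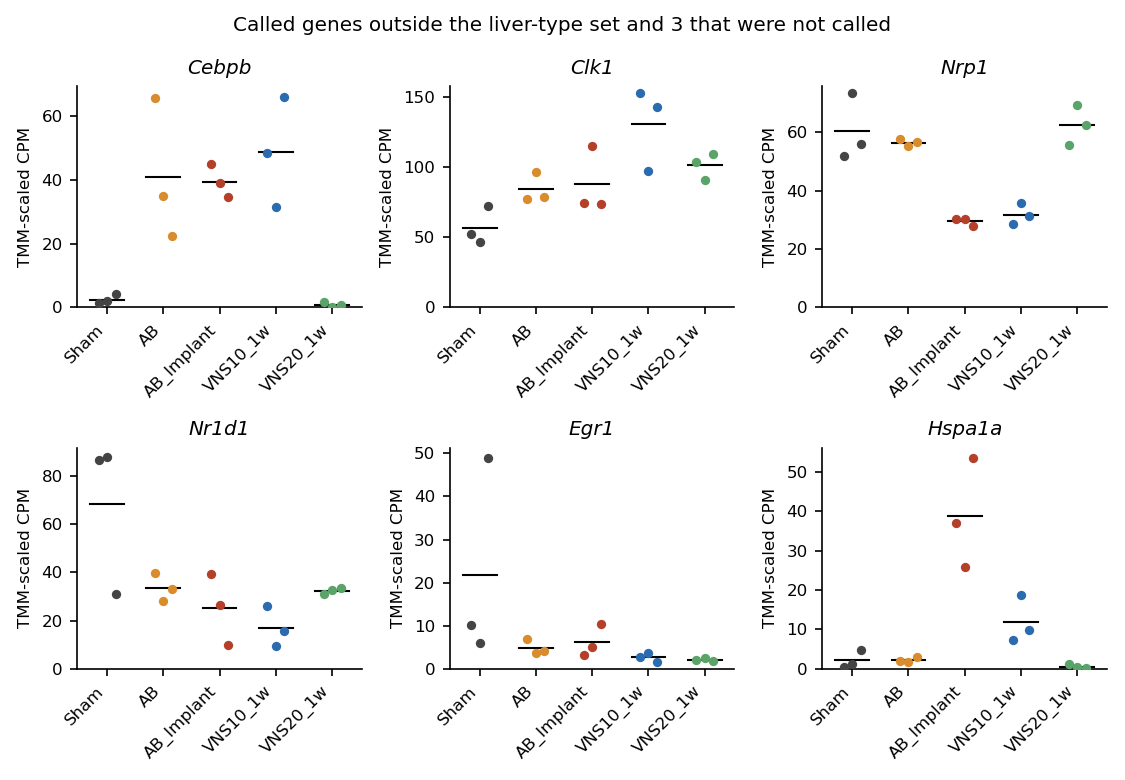
TMM-scaled CPM (y axis, from 0) of Cebpb, Clk1 and Nrp1, which were called, and of Nr1d1, Egr1 and Hspa1a, which were not, in 5 groups (x axis). Points are libraries and lines are group means of 3. Cebpb is high in AB, AB_Implant and VNS10_1w and low in Sham and VNS20_1w, whereas Nrp1 is low in AB_Implant and VNS10_1w.

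None of the 19 tested fetal and hypertrophy genes was called, although most leaned upward. Log2 fold changes were positive in 14 of them, against 53.9% of all genes, with a median of 0.82 beside 0.03 for all genes. In 8 the VNS10_1w libraries all exceeded the Sham libraries (background 4.84%), and 4 had an unadjusted p under 0.05. DESeq2 called 2 of the 19 and limma-voom 4, beside 63 and 709 of all 12100 tested genes. Myh7, the slow myosin heavy chain, was at 299.5, 409.6 and 687 CPM in Sham and 1513, 3538 and 1269 CPM in VNS10_1w (log2 fold change 2.18 ± 0.53 SE, edgeR adjusted p = 0.201). Replicate 2 was the highest, and the others still lay above every Sham library. Myot, the Z-disc protein myotilin, was at 46.7, 24.3 and 37.4 CPM against 108, 120 and 97.1 CPM (1.59 ± 0.37 SE, edgeR adjusted p = 0.151). Mybpc2 and Ankrd1, a myosin-binding protein and a stretch-responsive titin partner, were the others, with 1.2 ± 0.36 and 1.61 ± 0.48 (SE). Without VNS10_1w replicate 2 the list median was 0.43.

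Mean levels of the natriuretic peptides in VNS10_1w lay between those of Sham and of banded hearts without current, without a call. Nppa, atrial natriuretic peptide, was at 211, 106 and 347 CPM in Sham and 543, 417 and 478 CPM in VNS10_1w. The groups did not overlap (log2 fold change 1.11 ± 0.76 SE, edgeR adjusted p = 1.00). AB held 915 ± 548 CPM and AB_Implant 3723 ± 2135 CPM (SD, n = 3), and VNS10_1w differed from AB_Implant by -2.96 ± 0.80 log2 units (SE, edgeR adjusted p = 0.235). Nppb, B-type natriuretic peptide, was at 50.2, 90.5 and 225 CPM in Sham and 272, 367 and 265 CPM in VNS10_1w (1.30 ± 0.78 SE), beside 1284 ± 550 CPM in AB_Implant. Acta1, skeletal α-actin, was at 295, 422 and 404 CPM against 440, 1960 and 975 CPM (1.59 ± 0.86 SE). Rcan1, a calcineurin feedback regulator, was at 18.1, 19.7 and 19.3 CPM against 18.5, 60.6 and 21.3 CPM, so that replicate 2 alone was high. Medians of the whole list against Sham were 0.91 for AB and 1.89 for AB_Implant, comparisons that share the Sham libraries with this one.

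**Figure D4:**
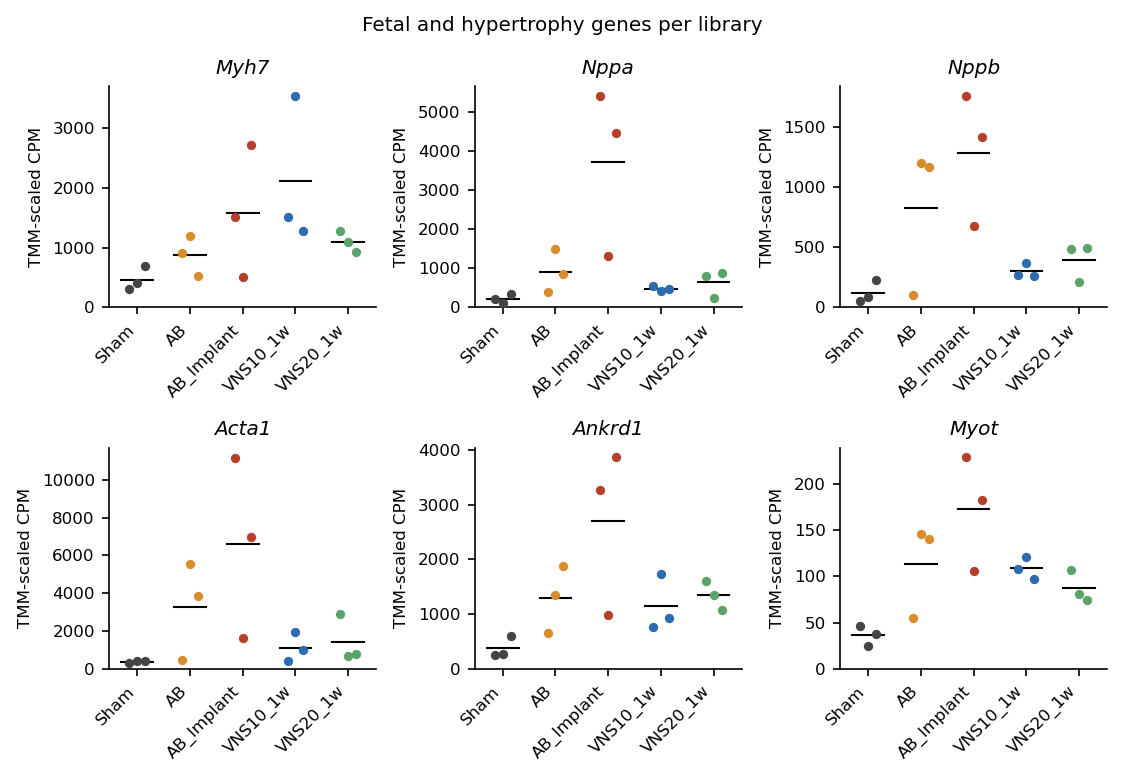
TMM-scaled CPM (y axis, from 0) of 6 fetal and hypertrophy genes in 5 groups (x axis). Points are libraries and lines are group means of 3. VNS10_1w libraries lie above the Sham libraries for all 6 genes, and AB_Implant means are highest for Nppa (3723), Nppb, Acta1, Ankrd1 and Myot but not for Myh7.

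No adult contractile or calcium-handling gene was called. Myh6, the fast α-myosin heavy chain of the adult mouse ventricle, was at 17170, 15150 and 16000 CPM in Sham and 15300, 15910 and 13710 CPM in VNS10_1w (log2 fold change -0.11 ± 0.23 SE, edgeR adjusted p = 1.00). Atp2a2, the calcium pump SERCA2, was at 9852, 7501 and 7022 CPM against 5068, 7336 and 5535 CPM (-0.44 ± 0.30 SE), with overlapping groups. Medians were 0.17 over 17 adult sarcomere genes, of which 1 had an unadjusted p under 0.05, and -0.03 over 13 calcium handling genes, of which 0 had. Nrap, an assembly protein of growing myofibrils, was at 493, 380 and 539 CPM against 806, 1010 and 774 CPM (0.88 ± 0.21 SE, edgeR adjusted p = 0.197).

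Matrix genes leaned the other way. Of 44 tested, none was called, 35 were negative (background 46.1%), 15 had VNS10_1w libraries all below the Sham libraries (background 5.21%) and 14 had an unadjusted p under 0.05, all lower. The median was -0.58, and medians against Sham were 0.10 in AB and 0.78 in AB_Implant. Among 15 collagen genes of the list 14 were negative and 10 did not overlap. Col15a1, a basement membrane collagen, was at 27.3, 49.5 and 36.7 CPM in Sham and 11.5, 18.4 and 12.4 CPM in VNS10_1w (-1.42 ± 0.35 SE, edgeR adjusted p = 0.214). Col3a1, of fibrillar collagen III, was at 80.2, 226 and 89.2 CPM against 46.6, 46.7 and 39.9 CPM (-1.57 ± 0.49 SE, edgeR adjusted p = 0.559). Col1a1, of collagen I, was at 56.4, 87.2 and 43.8 CPM against 29.1, 29.6 and 23.1 CPM (-1.2 ± 0.46 SE, edgeR adjusted p = 0.779). Sham replicate 2 was the highest for all 3. Postn, periostin of activated fibroblasts, overlapped between groups, at 16.2, 20.4 and 12.9 CPM against 10.4, 33.8 and 15.9 CPM.

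The matrix counts depended on single libraries. Without Sham replicate 2 there were 4 genes lower at an unadjusted p under 0.05, and 8 without VNS10_1w replicate 3. Without VNS10_1w replicate 2, the library of steep length dependence, 18 were lower and the median was -0.87. Limma-voom with sample weights called 13 of the 44 lower and DESeq2 1, beside 709 and 63 of all 12100 tested genes. Fibroblast markers overall had a median of -0.05 over 10 genes, 8 of them negative, and without Sham replicate 2 a median of 0.01 with 4 negative. Their summed level was 1304 to 1580 CPM in Sham and 1096 to 1512 CPM in VNS10_1w, and its part in the matrix levels was not tested. Against AB_Implant, 19 genes were called (0.157%), 13 higher (0.107%) and 6 lower (0.0496%). Higher were 12 of the liver-type genes above, all but Slc27a2, and Cyp4a10. Lower in VNS10_1w were Col15a1 (-2.04 ± 0.36 SE), Col6a1 (-1.30 ± 0.25 SE), Col16a1 (-1.51 ± 0.27 SE), the matrix protein gene Ccn1 (-2.0 ± 0.37 SE), the acute phase inhibitor gene Serpina3n (-3.01 ± 0.55 SE) and Ift122 (-1.31 ± 0.26 SE), with edgeR adjusted p from 0.0257 to 0.0406. Lower calls in that contrast numbered 0 without AB_Implant replicate 1 or 3 or VNS10_1w replicate 1 or 3, 1 without VNS10_1w replicate 2 and 40 without AB_Implant replicate 2. Against AB, the 6 calls (0.0496%) were all higher and liver-type, and none was lower (0%). These calls numbered 3 without AB replicate 1 or 3 and 11 without VNS10_1w replicate 2.

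**Figure D5:**
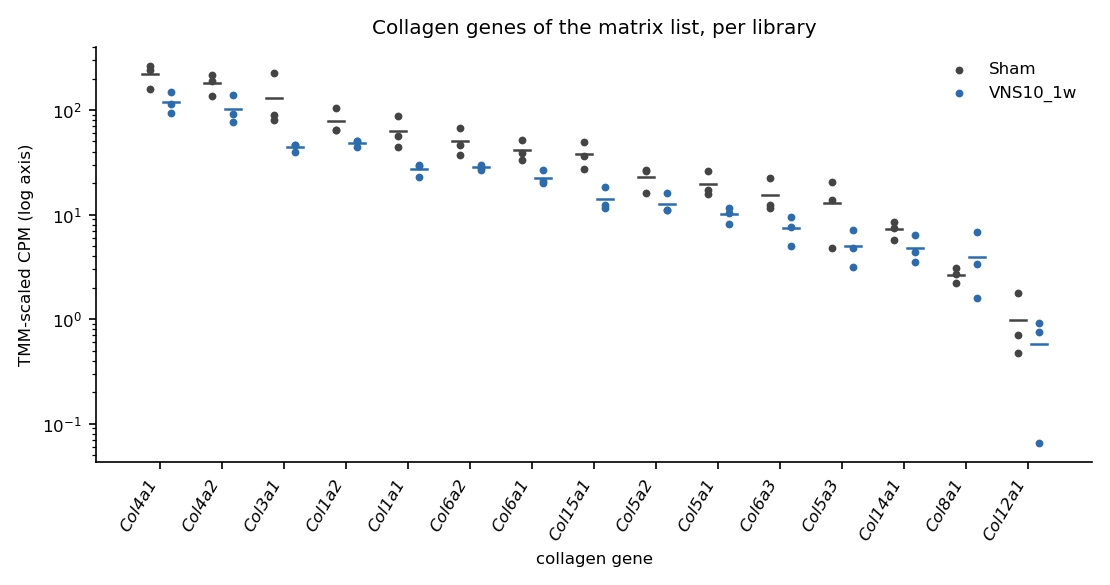
TMM-scaled CPM (y axis, log scale) of the 15 collagen genes of the matrix list (x axis) in the 3 Sham and the 3 VNS10_1w libraries. Points are libraries and bars are group means. For 10 of the 15 genes all VNS10_1w points lie below all Sham points, and no collagen gene was called against Sham.

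No chaperone or clock gene was called. Of 20 heat shock and chaperone genes 17 were positive (background 53.9%), 8 were higher without overlap (background 4.84%) and 5 had an unadjusted p under 0.05 in the higher direction (background 2.68%), with a median of 0.29. DESeq2 called 1 of them higher and limma-voom 4, beside 63 and 709 of all 12100 tested genes. Without Sham replicate 1 or 2 there were 3 with such a p. Hspa1a, the inducible HSP70, was at 0.458, 1.14 and 4.86 CPM in Sham and 7.44, 18.8 and 9.80 CPM in VNS10_1w (log2 fold change 2.46 ± 0.67 SE, edgeR adjusted p = 0.350). It was higher still in AB_Implant, at 38.8 ± 13.8 CPM (SD, n = 3), and lower in VNS20_1w, at 0.604 ± 0.463 CPM, where the difference between session lengths was called (-4.25 ± 0.77 SE, edgeR adjusted p = 0.0379). Its near-identical neighbour Hspa1b may share reads with it. Without Sham replicate 3, the library high in stress-induced genes, 4 of the 20 chaperone genes were called higher. Calls over all 12100 tested genes numbered 34 in that fit.

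Among clock genes, Nr1d1, the repressor REV-ERBα of the core clock, was at 86.6, 87.8 and 30.9 CPM in Sham and 26.0, 9.54 and 15.5 CPM in VNS10_1w (-2.01 ± 0.49 SE, edgeR adjusted p = 0.197). The groups did not overlap, and Sham replicate 3 was nearest to VNS10_1w. Without that library the Nr1d1 value was -2.36 with an edgeR adjusted p of 0.0483, and DESeq2 called it lower with all libraries. Over the 19 clock genes 13 were positive and the median was 0.18, but without VNS10_1w replicate 2 there were 8 and the median was -0.14. Time of day at tissue collection is not given in the labels and was not tested.

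Immediate early genes were mixed. Of 27 tested, Cebpb was called, 4 including it had an unadjusted p under 0.05 in the higher direction and 2 in the lower, and the median was -0.19. Without Sham replicate 3 the direction turned: 19 of the 27 were positive and the median was 0.65. In that fit 10 had such a p in the higher direction and 3 were called, beside 34 of all 12100 tested genes. Egr1, a zinc finger factor of acute stimulation, was at 10.3, 6.11 and 49.0 CPM in Sham and 2.71, 3.78 and 1.62 CPM in VNS10_1w (-3.00 ± 0.76 SE, edgeR adjusted p = 0.224). Of genes named by small p outside the lists, Ankrd37 (0.839 to 1.90 CPM in Sham, 3.46 to 8.96 CPM in VNS10_1w) and Maco1 (15.2 to 24.1 against 29.7 to 35.6 CPM) were higher without overlap and without a call. Pim1, a survival kinase (7.26 to 12.6 against 4.15 to 5.16 CPM), Galnt18 (9.17 to 16.4 against 4.93 to 6.17 CPM) and Cxxc5 (7.06 to 8.72 against 3.21 to 5.65 CPM) were lower without overlap and without a call.

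Receptors that the vagus and sympathetic nerves act on had overlapping levels in the groups. Chrm2, the muscarinic receptor of the heart, was at 9.94, 4.55 and 4.11 CPM in Sham and 1.18, 9.41 and 1.30 CPM in VNS10_1w (-0.62 ± 1.03 SE, edgeR adjusted p = 1.00). VNS10_1w replicate 2 lay with the Sham libraries and its mates lay below them. Adrb1, the main cardiac β-adrenergic receptor, was at 3.73, 4.31 and 3.46 CPM against 2.37, 4.06 and 4.09 CPM (-0.12 ± 0.47 SE). The difference changed sign without VNS10_1w replicate 1. None of 9 cholinergic or 17 adrenergic genes was called in edgeR, and 0 and 3 of them had an unadjusted p under 0.05 (1 adrenergic gene without Sham replicate 2). Limma-voom called 1 cholinergic gene lower, and 1 adrenergic gene higher and 3 lower, among its 709 calls over all genes. Grk5, a receptor kinase that ends adrenergic signals, was at 38.4, 21 and 13 CPM against 11.1, 13 and 9.67 CPM (-1.10 ± 0.31 SE, edgeR adjusted p = 0.408).

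No blood or immune marker was called. Of 10 neutrophil genes 4 were tested, all negative, with a median of -2.82. Medians of these genes against Sham were -3.15 in AB and -1.10 in AB_Implant, comparisons that share the Sham libraries. Csf3r, the receptor for granulocyte colony stimulating factor, was at 1.83, 3.77 and 2.60 CPM in Sham and 0.169, 0.553 and 0.519 CPM in VNS10_1w (-2.65 ± 0.61 SE, edgeR adjusted p = 0.149). Limma-voom called all 4 lower and DESeq2 called 1, beside 709 and 63 of all 12100 tested genes. All 4 had an unadjusted p under 0.05, but 1 had it without Sham replicate 2, with a median of -2.04. The neutrophil sum was 6.08 to 29.5 CPM in Sham and 1.49 to 3.89 CPM in VNS10_1w. All 6 tested red blood cell genes were positive with a median of 1.16, beside medians against Sham of 1.37 in AB and 0.998 in AB_Implant. Their sum was 237 to 276 CPM in Sham and 363 to 932 CPM in VNS10_1w. Limma-voom called 5 of them higher, among its 709 calls over all genes. Of 26 interferon and antigen presentation genes 21 were negative (background 46.1%), with a median of -0.47, and 1 was lower without overlap (background 5.21%). Their sum was highest in Sham replicate 2, at 1191 CPM, and without that library 15 were positive, the median was 0.02 and the number with an unadjusted p under 0.05 went from 4 to 0. Macrophage (12 genes, median -0.10), endothelial (11, -0.16) and smooth muscle and pericyte markers (11, -0.33) held no call, and the first median was 0.13 without Sham replicate 2 and the second 0.03 without VNS10_1w replicate 3.

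Energy genes gave small medians, and ribosomal, antioxidant and ion channel genes held no call in edgeR. Medians were 0.08 over 42 nuclear respiratory chain and citric acid cycle genes, 0.02 over 24 fatty acid genes and -0.05 over 26 glucose genes, with no call. Of 45 cytosolic ribosomal protein genes 44 were positive (background 53.9%), with a median of 0.25 and no gene whose groups did not overlap (background 10%). That direction moved with single libraries. Without VNS10_1w replicate 1, 32 of the 45 were negative and the median was -0.04, while without VNS10_1w replicate 2 all 45 were positive and the median was 0.51. With each library's length slope as a covariate the median was 0.06, and without the 3 libraries of length slope above 0.3 it was 0.56. Of 19 NRF2 antioxidant genes 17 were positive with a median of 0.31 (0.20 without Sham replicate 2), and Nfe2l2, the gene of NRF2 itself, was at 38.3, 32.8 and 77.9 CPM against 79.9, 82.5 and 92.6 CPM (0.78 ± 0.25 SE, edgeR adjusted p = 0.638). Of 20 ion channel genes 16 were negative with a median of -0.28, which was -0.10 without VNS10_1w replicate 1 and -0.49 without replicate 2. Limma-voom called 5 of the NRF2 genes higher and 4 of the ion channel genes lower, among its 709 calls over all genes. Hcn4, the pacemaker channel, was at 5.56, 3.53 and 2.31 CPM against 0.930, 1.11 and 1.56 CPM (-1.65 ± 0.57 SE, edgeR adjusted p = 0.703).

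The session lengths from week 1 were set against each other directly, so that Sham cancels. VNS20_1w differed from VNS10_1w in 12 genes (0.0992%), 2 higher in VNS20_1w (0.0165%) and 10 lower (0.0826%). Nrp1 and C3ar1, the receptor for complement C3a, were the higher ones, with C3ar1 at 5.04 against 1.24 CPM on average (Sham 2.14 CPM). Lower were Cebpb, Hspa1a, Scand1, Nudt3, Pabpn1, Hnrnpa0, Eid2b, Mrfap1, BC029722 and Gm9887. For Hnrnpa0, an RNA-binding protein, mean levels were 34.4 CPM in VNS10_1w, 3.35 CPM in VNS20_1w and 18.0 CPM in Sham (log2 -3.34 ± 0.42 SE, edgeR adjusted p = 0.00271). The 10 lower genes had a median GC content of 57.5%, against 49.9% over the tested genes. Calls numbered 0 without VNS20_1w replicate 2 or 3, and 6, 4 and 5 without VNS10_1w replicates 1, 2 and 3. Except for Cebpb, Hspa1a and Nrp1, the genes in this paragraph were named after their values were seen.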

How the data were processed

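Left ventricle polyadenylated RNA of 21 mice, in 7 groups of 3, was sequenced as paired reads, per the labels' protocols. The submitters' processing notes name HISAT2 2.1.0 and featureCounts 1.6.0 beside FastQC 0.11.9, cutadapt 1.11, edgeR 3.32.1 and R 4.0.3, and build GRCm38. The authors deposited 1 table of counts for 22136 genes. Its name speaks of normalized counts, but 100% of its values were whole, library totals ran from 11577509 to 19414865 counts, and the numbers of genes at neighbouring counts were smooth (unevenness 0.769 to 1.24, against at least 5.64 after multiplying by 1 of 4 factors between 0.6 and 1.5 with rounding). They were therefore tested as raw counts. Whether counting used strand is not given in the sources used here, so overlapping and antisense genes cannot be separated.

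Genes with at least 1 CPM in at least 3 libraries were kept (12100), scaled by TMM and fitted in R 4.3.3 by edgeR 4.0.16 (the quasi-likelihood test on all 21 libraries in 1 model of 7 groups, Benjamini-Hochberg adjustment over all tested genes, called under 0.05, no minimum fold). All adjusted p-values come from that test unless another tool is named, and 4 contrasts were tested. Standard errors are the log2 fold change divided by the square root of its F value. The script was tested on simulated data with known changes. Symbols were found for 22041 genes, and coordinates, lengths and GC content came from GENCODE M21. Alternatives were other filters and scalings, DESeq2 1.42.0, limma 3.58.1 (voom with sample weights), the 2 groups alone, a replicate block, length and GC covariates and left-out libraries. Count ratios carry exact binomial 95% intervals, which cover counting error only, as does the floor of 3 counts.

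Members, the 38 gene lists and the comparison itself were chosen with earlier results of these data known. Genes were named by a rule: called genes without overlap between the groups and with 5 CPM or more on average in the higher group, up to 12 in each direction, then up to 6 with the smallest p, up to 3 called members of each list, and 16 genes always given. Other genes were chosen after their values were seen, among them list members given as examples. A gene that the rule names is not reported here.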

Additional observations from a re-analysis of the deposited data

Results flagged for a closer look

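Effects against Sham differed between the session lengths from week 1 for 3 of the genes given, by a test of the difference itself, in which Sham cancels (edgeR, 3 libraries in each group). Cebpb was lower in VNS20_1w than in VNS10_1w by a log2 difference of -5.86 (edgeR adjusted p = 0.00851), lower in 3 of 3 libraries. Nrp1 was higher by 0.97 (edgeR adjusted p = 0.0379) and Hspa1a lower by -4.25 (edgeR adjusted p = 0.0379), also without overlap between the 3 libraries of each group. These differences were not called without VNS20_1w replicate 2 or without VNS20_1w replicate 3, each of which left no gene called.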

How the results depend on the processing

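Calls in VNS10_1w against Sham (16 in the fit reported) were 1 with a mean of at least 5 CPM, 63 with DESeq2, 709 with voom weights, 4 with the 2 groups alone, 98 with a length covariate, 34 with a GC covariate and 30 without the 3 libraries of length slope above 0.3, a setting added after the data were seen. Leaving out 1 library gave 5 to 34. Against AB_Implant (19) the same settings gave 1, 91, 2024, 2, 180, 62 and 44, and left-out libraries 4 to 59. Against AB (6) they gave 1, 25, 15, 2, 20, 13 and 11, with 10 without a filter and 10 with DESeq2 size factors, and left-out libraries 3 to 11. For VNS20_1w against VNS10_1w (12) they gave 4, 56, 1994, 0, 141, 69 and 3, with 20 when scaled to the nuclear total, and left-out libraries 0 to 12. In the last contrast voom called 1074 higher and 920 lower. In all 4 contrasts every other setting stayed within 1.5 times, except the replicate block. With a mean of at least 5 CPM, 2 hepatocyte markers were tested against 23 in the fit reported. Most liver-type genes were thus absent from that fit. Cebpb, Clk1 and Nrp1 were tested in it and lost their calls. The cause of the other shifts was not tested.

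With a replicate block the counts were 7, 7, 4 and 6 in that order. Same-numbered Sham and VNS10_1w libraries deviated with correlations of -0.434, -0.497 and 0.055, and differently numbered ones with -0.293 to 0.484. With so few libraries these values cannot tell whether same-numbered samples were handled together, which was not tested.

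Alb, Cyp2c29 and Cyp3a11 kept their calls under every alternative that was run for them. Adrb1 (-0.12) turned to 0.059 with voom and ran from -0.244 to 0.088 over left-out libraries, positive without VNS10_1w replicate 1. Postn (0.28) turned to -0.274 without the 3 libraries and ran from -0.325 to 0.591, negative without VNS10_1w replicate 2. At these depths a gene with no count in Sham is limited by the floor of 3 counts.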

Other observations

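Liver-type transcripts stood in different proportions to each other in different stimulated libraries. Counts of Alb per count of Cyp2c29 were 5.27, 1.13 and 1.72 in VNS10_1w replicates 1 to 3, and 3.75, 2.68 and 3.30 in VNS20_1w. In VNS20_2w (20 min from week 2) they were 12.1, 19.1 and 2.36. VNS20_4w (20 min from week 4) had 2068 Alb counts but 30 Cyp2c29 counts over its 3 libraries. Mup3 had 0 counts in VNS10_1w, 20 in VNS20_1w, 152 in VNS20_2w and 121 in VNS20_4w, and Serpina3k had 3, 15, 147 and 107. Within VNS20_2w, replicate 3 had 0 Mup3 counts while replicates 1 and 2 had 62 and 90.

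Genes lower in VNS20_1w than in VNS10_1w were low in some other libraries too. Cebpb stood at 0.187 to 1.58 CPM in VNS20_1w and 0.913 to 4.18 CPM in VNS20_2w. Scand1 (68.4% GC) was at 1.63, 2.81 and 19.4 CPM in Sham, 22.4 to 48.1 CPM in AB, 13.7 to 34.2 CPM in VNS10_1w and 0.380 to 3.37 CPM in VNS20_2w. Nudt3 (57.0% GC) was at 1.31, 1.26 and 8.07 CPM in Sham, 7.69 to 10.0 CPM in VNS10_1w and 0 to 0.632 CPM in VNS20_1w. In each of these, Sham replicate 3 was the highest Sham library. The cause was not tested.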
